A study of Mus musculus with 11 samples.

Results

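Described here are the 48 protein-coding genes whose mean level in CSF3R-first marrow cells fell outside the levels of both other groups of an oncogene-order experiment. Levels are in CPM, the counts of a gene for each 1000000 counts of its library. A gene was eligible when its mean reached 1 CPM in at least 1 group, which 11412 protein-coding genes did. On the high side stand 28 genes whose CSF3R-first mean was at least 1.6 times both other group means, and on the low side 20 genes for which both other means were at least 1.6 times the CSF3R-first mean. The genes were thus chosen by their group means in all 11 samples, and every value that sets these genes in CSF3R-first against another group is given below as a description, without a test. Group means of a gene are listed in the order CSF3R-only, CSF3R-first, CEBPA-first unless the groups are named.

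The study asked whether the order in which mutant CSF3R and mutant CEBPA are acquired matters for leukemia initiation. Bone marrow labelled C57BL/6 was retrovirally transduced, lineage-negative cells positive for both fluorescent markers were sorted, and these were cultured for 48 h with 4-hydroxytamoxifen in medium without added cytokines before bulk RNA-seq of 11 samples. A constitutive vector carrying GFP held the first oncogene, and a second vector held an oncogene expressed only after recombination by a tamoxifen-activated Cre, so that all 3 groups saw the same drug and both vectors. CSF3R-only cells (n = 4, replicates A to D) received an activated membrane-proximal CSF3R mutant in the constitutive vector and an empty inducible vector. CSF3R-first cells (n = 3, replicates A to C) received the same CSF3R mutant followed on induction by a C-terminal CEBPA mutant, and CEBPA-first cells (n = 4, replicates A to D) received the CEBPA mutant followed on induction by mutant CSF3R. The labels do not say whether the letters stand for separate mice or cultures, so the spread between samples of a group may be technical. The cells were sorted populations of transduced marrow, not clones.

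CSF3R is the receptor for G-CSF, the cytokine that drives neutrophil production, and signals through JAK kinases and STAT factors. CEBPA is a transcription factor of myeloid progenitors that binds enhancers of neutrophil and monocyte genes, and mutants with an altered DNA-binding region impair that program.

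Library totals ranged from 47905747 to 72268346 counts, with 47905747 to 61069929 in CSF3R-first, 49499527 to 65937530 in CSF3R-only and 49782847 to 72268346 in CEBPA-first. The mouse gene Cebpa was at 83.1 ± 8.3, 132 ± 16.2 and 174 ± 9.88 CPM (SD), and mouse Csf3r was at 805 ± 82.5, 517 ± 92.1 and 160.0 ± 14.3 CPM, so for both genes CSF3R-first lay between the other groups. Whether reads of the vectors' human coding sequences were counted on these mouse genes is not given in the sources used here. No sample repeated another: for pairs of samples in a group, the chi-square per degree of freedom over genes was 9.95 to 110, where sampling noise alone gives about 1. CSF3R-first replicate A stood apart in its group, at 110 against B and 82.2 against C, where B against C gave 24.4 and no pair in the other groups more than 43. Without it, 19 of the 28 high-side and 12 of the 20 low-side genes still met the rule.

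Standing outside both other groups was the less usual position. The CSF3R-first mean lay between the other means in 9383 of the 11412 eligible genes (82.2%), above both by any margin in 945 (8.28%) and below both in 1084 (9.50%). A margin of at least 1.25 left 92 genes above and 106 below, the rule's margin of 1.6 left 28 (0.245%) and 20 (0.175%), and a margin of 2 left 10 and 5. The genes nearest to the limit on the high side were Tac2, Zscan10 and Svep1 inside it, at 1.62, 1.68 and 1.69 times the higher of the other means, and Oosp1, Slpi and Hopx outside it, at 1.59, 1.57 and 1.56 times. On the low side, Psd3, Lpar1 and F2r stood just inside at 0.623, 0.612 and 0.607 times the lower of the other means, and Rassf8, Eya1 and Actr3b just outside at 0.627, 0.628 and 0.629 times. Slpi and Hopx, at 407 and 87.6 CPM in CSF3R-first, were among the genes just outside, so the limit did not fall in a gap.

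**Figure D1:**
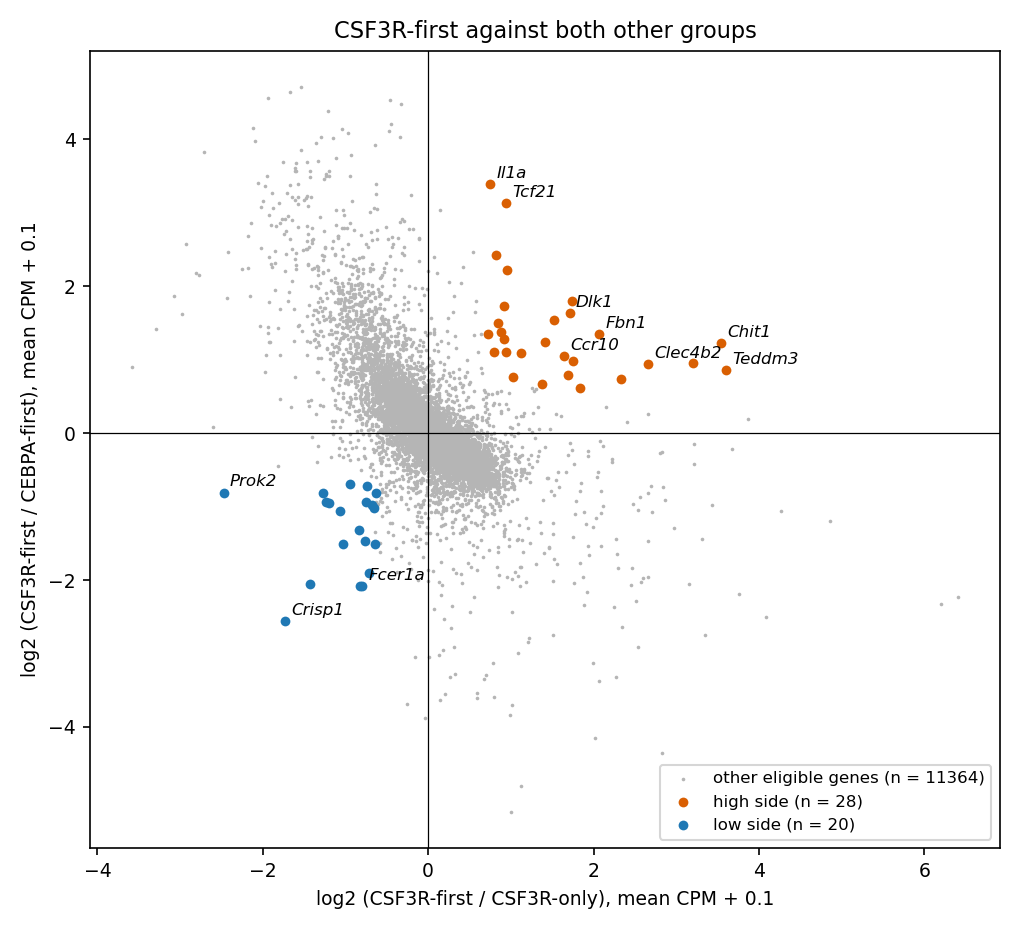
Each point is 1 of the 11412 eligible genes, placed by the log2 ratio of its CSF3R-first mean to its CSF3R-only mean (x axis) and to its CEBPA-first mean (y axis), both after adding 0.1 CPM. The 28 high-side genes (orange) lie in the upper right, the 20 low-side genes (blue) in the lower left, and most other genes (grey) in the quadrants where CSF3R-first is between the other groups.

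On the high side, the CSF3R-first mean was 1.62 to 3.99 times the higher of the other means, with a median of 1.94. In 21 of the 28 genes all 3 CSF3R-first samples lay above all 8 other samples, a pattern seen in 1.08% of all eligible genes. The rule used this contrast, so nothing is read from that difference. The 7 genes with overlap were 4933430I17Rik, C1s1, Il1a, Rasd2, Slc7a2, Tac2 and Teddm3. CSF3R-first replicate A held the highest of the CSF3R-first values in 17 genes, B in 7 and C in 4, and 13 of the 28 genes reached a group mean of 5 CPM. Counts behind single values ran from 0 to 2394, so the genes near 1 CPM rest on few reads.

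**Figure D2:**
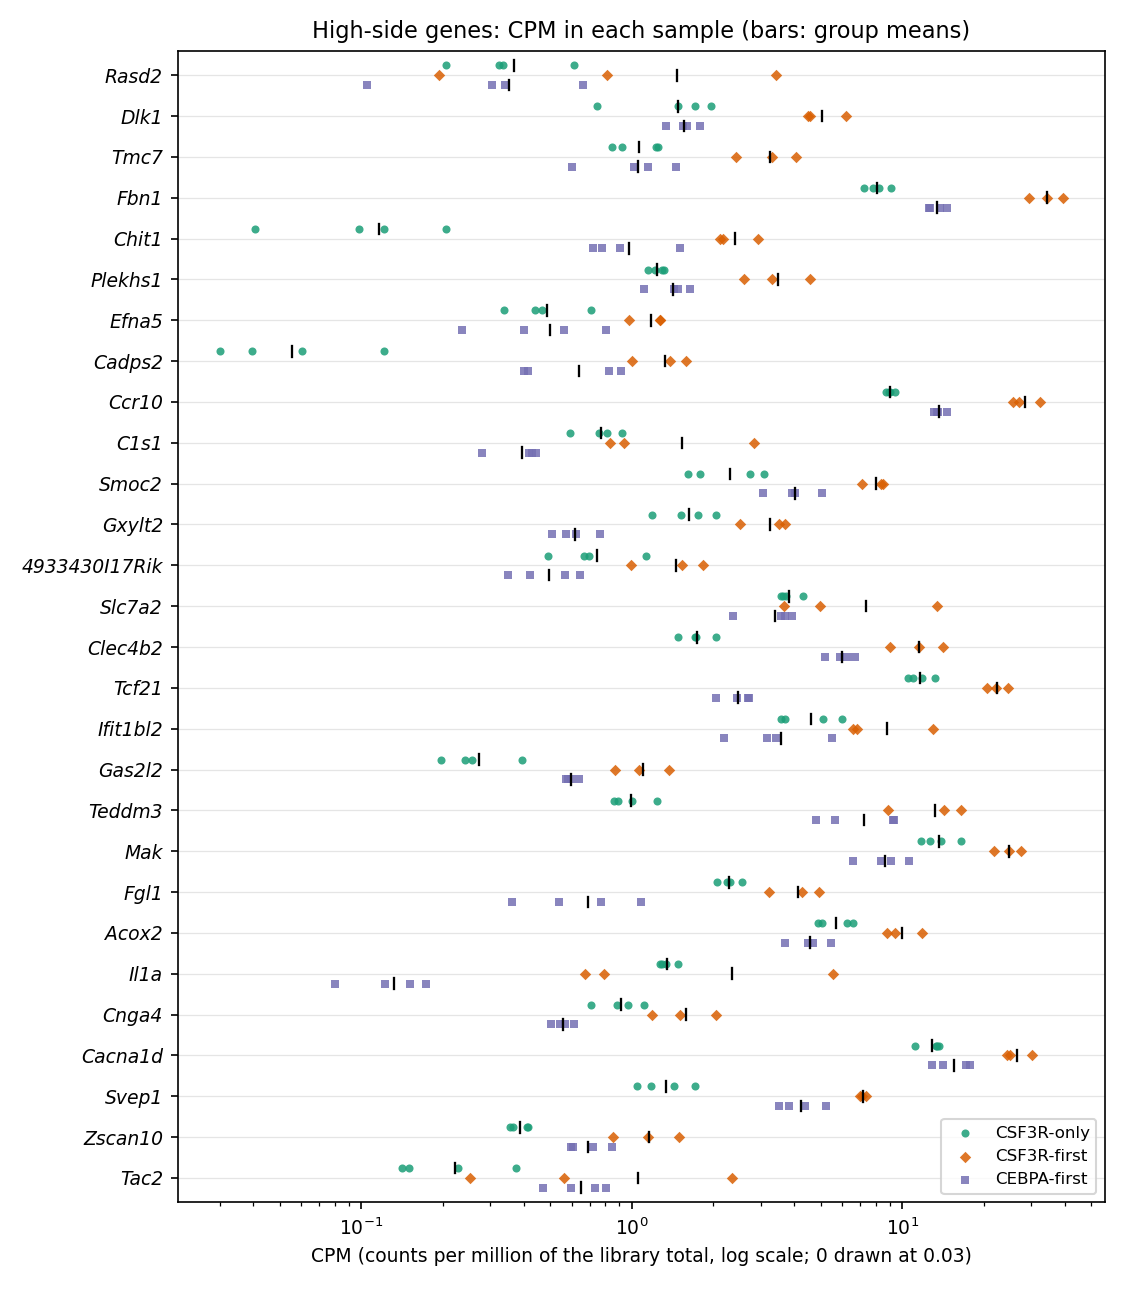
CPM (log scale) of the 28 high-side genes in each of the 11 samples, with group means as black bars and a count of 0 drawn at 0.03. CSF3R-first diamonds stand to the right of both other groups in 21 genes, while single samples carry the CSF3R-first mean of Rasd2, C1s1, Slc7a2, Il1a and Tac2.

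The high-side genes are taken by role, beginning with extracellular proteins. Fbn1 (chr2:125300594-125507993 on GRCm38, as are all coordinates here), which encodes fibrillin-1, the core of connective tissue microfibrils, was at 7.25, 7.78, 9.12 and 8.2 CPM in CSF3R-only A to D, 34.3, 29.4 and 39.2 CPM in CSF3R-first A to C, and 12.5, 13.8, 14.7 and 12.7 CPM in CEBPA-first A to D. The CSF3R-first samples stood far above both other groups, and CEBPA-first lay above CSF3R-only without overlap. The CSF3R-first mean of 34.3 ± 4.91 CPM (SD, n = 3) was 2.56 times the CEBPA-first mean. Of the longest Fbn1 transcript, 20.4% is near-identical (at least 100 bp at 97% identity) to the overlapping gene Gm9913, so a part of its reads may belong there.

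Smoc2 (chr17:14279506-14404790), a secreted matricellular calcium-binding protein, was at 1.62, 3.09, 1.79 and 2.75 CPM in CSF3R-only A to D, 7.13, 8.52 and 8.37 CPM in CSF3R-first A to C, and 3.91, 5.06, 4.02 and 3.06 CPM in CEBPA-first A to D. All 3 CSF3R-first values exceeded 7 CPM and no other sample passed 5.06 CPM, which gave a ratio of 1.99. Svep1 (chr4:58042442-58206859), a large secreted matrix protein with sushi and EGF domains, was at 1.43, 1.18, 1.04 and 1.71 CPM in CSF3R-only A to D, 7.09, 7.37 and 7.01 CPM in CSF3R-first A to C, and 4.37, 5.22, 3.52 and 3.83 CPM in CEBPA-first A to D. Its CSF3R-first values were nearly equal to each other and the groups formed 3 separate levels, lowest in CSF3R-only. The margin over CEBPA-first was 1.69, close to the limit, and without CEBPA-first replicate C the gene no longer met the rule. Svep1 shares 13.9% of its exon bases with Gm26889, so a part of its reads may belong there. Of the 11 eligible genes in a family list matched by gene symbol after the values were seen (fibrillins, LTBPs, fibulins, MFAPs, SMOCs and Svep1), these 3 were on the high side and 8 on neither side. Among the 8, Ltbp1 was at 30.6, 8.97 and 0.601 CPM and Mfap3l at 7.69, 2.87 and 0.877 CPM, both lowest in CEBPA-first.

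Dlk1 (chr12:109452823-109463336), an imprinted transmembrane protein with EGF repeats that acts in the Notch pathway without being a classical ligand, was at 0.747, 1.97, 1.71 and 1.49 CPM in CSF3R-only A to D, 4.47, 4.55 and 6.19 CPM in CSF3R-first A to C, and 1.54, 1.6, 1.79 and 1.34 CPM in CEBPA-first A to D. CSF3R-first exceeded every other sample, whereas the other groups overlapped, and its mean was 3.23 times the CEBPA-first mean. Gxylt2, a xylosyltransferase that extends glucose on Notch EGF repeats, shared the high side with group means of 1.63, 3.24 and 0.617 CPM. Of the 11 eligible genes in a family list matched by gene symbol after the values were seen (DLK, Notch and JAG genes, Notch-glycosylating enzymes, the Notch target Hes1 and, by its symbol alone, Jagn1), these 2 were the only members on either side. Notch1, at 129.9, 108 and 82.1 CPM, and Notch2, at 158, 109 and 77.2 CPM, had their highest mean in CSF3R-only and their lowest in CEBPA-first. Notch3, Jag1, Jag2 and Gxylt1 had that order too. In contrast, Hes1 (9.5, 8.91 and 17.9 CPM), Poglut1 (43.5, 47.2 and 58 CPM) and Jagn1 (30.3, 39.6 and 54.1 CPM) were highest in CEBPA-first.

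Surface receptors and channels formed another set by role. Clec4b2 (chr6:123172893-123204671), a C-type lectin receptor of the Clec4 cluster, was at 1.72, 1.72, 2.05 and 1.49 CPM in CSF3R-only A to D, 14.1, 11.6 and 9.04 CPM in CSF3R-first A to C, and 6.24, 5.19, 5.89 and 6.67 CPM in CEBPA-first A to D. CSF3R-first was highest, CEBPA-first intermediate and CSF3R-only lowest, with no overlap between any pair of groups and a ratio of 1.93 to the CEBPA-first mean. Of the other 8 eligible Clec4 genes, 7 had their highest mean in CSF3R-only: Clec4n, for example, was at 258, 137 and 26.5 CPM and Clec4d at 144, 78.4 and 25.1 CPM. Clec4b2 was the only 1 of the 9 on either side and the only 1 with its lowest mean in CSF3R-only.

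The RefSeq promoter window of Clec4b2 (GRCm38.p6, chr6:123172773-123173072, plus strand, from 250 bases before to 50 after the start) is shown for its 4 matches to the C/EBP motif TTNNGNAA, read on both strands and set in capitals.
Clec4b2 promoter: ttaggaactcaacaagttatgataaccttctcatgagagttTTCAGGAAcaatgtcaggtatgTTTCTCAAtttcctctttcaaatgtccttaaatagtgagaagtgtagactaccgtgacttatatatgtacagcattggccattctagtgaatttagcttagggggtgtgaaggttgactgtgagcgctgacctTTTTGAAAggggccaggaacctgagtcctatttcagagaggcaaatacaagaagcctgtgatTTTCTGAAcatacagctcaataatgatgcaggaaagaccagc
The same motif was found in the windows of 13 of 24 high-side genes with a RefSeq window (54.2%), 7 of 15 on the low side (46.7%), 36.3% of all eligible genes and 44.1% of all genes with a window. A match describes letters and is not evidence of binding.

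Ccr10 (chr11:101172997-101175443), the receptor for the chemokines CCL27 and CCL28, was at 8.95, 9.05, 8.75 and 9.42 CPM in CSF3R-only A to D, 32.5, 27 and 25.7 CPM in CSF3R-first A to C, and 13.6, 13.2, 13.4 and 14.6 CPM in CEBPA-first A to D. The samples of each group were tight and the 3 groups separate, with CSF3R-first 2.07 times CEBPA-first. Cacna1d (chr14:30039939-30491455), the pore-forming subunit of an L-type voltage-gated calcium channel, was at 13.3, 11.2, 13.7 and 13.5 CPM in CSF3R-only A to D, 30.2, 24.3 and 25 CPM in CSF3R-first A to C, and 17.3, 14.1, 17.9 and 12.9 CPM in CEBPA-first A to D. CSF3R-first stood above all others, but its ratio of 1.7 fell under the limit without CSF3R-first replicate A. Cacna1d shares 4.67% of its exon bases with Chdh, at 1.9, 33.7 and 192 CPM, so a part of its reads may belong there.

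Slc7a2 (chr8:40862396-40922308), which imports arginine and other cationic amino acids, was at 3.64, 3.56, 4.3 and 3.72 CPM in CSF3R-only A to D, 13.5, 3.67 and 4.98 CPM in CSF3R-first A to C, and 3.56, 3.93, 3.68 and 2.37 CPM in CEBPA-first A to D. Replicate A was far above the other groups and C narrowly above them, while B lay within both, and the gene did not meet the rule without A. Its relative Slc7a1 had its highest mean in CEBPA-first, at 38.8, 74.6 and 119 CPM. Cnga4, a cyclic nucleotide-gated channel subunit known from olfactory neurons, was at a mean of 1.58 CPM in CSF3R-first against 0.917 and 0.557 CPM in CSF3R-only and CEBPA-first.

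Tcf21 (chr10:22817281-22820174), a basic helix-loop-helix transcription factor known from mesenchymal development, was at 11, 13.2, 10.5 and 11.8 CPM in CSF3R-only A to D, 20.6, 24.7 and 22.3 CPM in CSF3R-first A to C, and 2.68, 2.71, 2.05 and 2.45 CPM in CEBPA-first A to D. The order was CSF3R-first, CSF3R-only and CEBPA-first with wide gaps between them, and CSF3R-first was 1.93 times CSF3R-only. Mak (chr13:41025008-41079706), a kinase of germ cells and cilia, was at 16.5, 13.9, 11.8 and 12.6 CPM in CSF3R-only A to D, 27.4, 24.9 and 21.9 CPM in CSF3R-first A to C, and 10.6, 8.35, 9.12 and 6.57 CPM in CEBPA-first A to D. It had the same order without overlap at a smaller ratio of 1.81. Acox2 (chr14:8225511-8259353), a peroxisomal oxidase of branched-chain acyl-CoAs and bile acid intermediates, was at 6.59, 5.04, 4.91 and 6.26 CPM in CSF3R-only A to D, 11.8, 9.39 and 8.78 CPM in CSF3R-first A to C, and 5.45, 4.47, 4.7 and 3.68 CPM in CEBPA-first A to D. CSF3R-first was again above every other sample, while CSF3R-only and CEBPA-first overlapped, and the gene missed the limit without CSF3R-first replicate A.

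Teddm3 (chr16:21152655-21154000), of a family of transmembrane proteins named from the epididymis, was at 0.889, 0.862, 1.24 and 1 CPM in CSF3R-only A to D, 16.6, 8.87 and 14.3 CPM in CSF3R-first A to C, and 9.31, 5.64, 9.24 and 4.8 CPM in CEBPA-first A to D. Replicate B at 8.87 CPM lay below CEBPA-first A and C, so the groups overlapped there, whereas all CSF3R-only values were near 1 CPM. Since 65.8% of its longest transcript is near-identical to Gm6551, its level is uncertain.

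The other 15 high-side genes had CSF3R-first means of 1.05 to 4.14 CPM, against 0.0553 to 2.29 CPM in the other groups. Chit1, the macrophage chitinase chitotriosidase, was at 0.0404, 0.206, 0.0985 and 0.121 CPM in CSF3R-only A to D, 2.94, 2.17 and 2.13 CPM in CSF3R-first A to C, and 0.719, 0.905, 1.51 and 0.775 CPM in CEBPA-first A to D. It was near the detection limit in CSF3R-only and highest in every CSF3R-first sample. Cadps2, which primes secretory vesicles, was at 0.0606, 0, 0.0394 and 0.121 CPM in CSF3R-only A to D, 1.01, 1.59 and 1.39 CPM in CSF3R-first A to C, and 0.912, 0.4, 0.824 and 0.415 CPM in CEBPA-first A to D. CSF3R-only had 0 counts in replicate B and no more than 0.121 CPM elsewhere, and both arms with the CEBPA mutant were above it. A count of 0 allows up to 3 counts, and all such limits cover counting error only.

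Tmc7, of the transmembrane channel-like family, was at 1.23, 1.26, 0.847 and 0.925 CPM in CSF3R-only A to D, 3.29, 4.05 and 2.42 CPM in CSF3R-first A to C, and 1.02, 1.46, 0.603 and 1.15 CPM in CEBPA-first A to D. Plekhs1, with a pleckstrin homology domain, was at 1.15, 1.29, 1.22 and 1.32 CPM in CSF3R-only A to D, 4.55, 2.61 and 3.31 CPM in CSF3R-first A to C, and 1.44, 1.48, 1.65 and 1.11 CPM in CEBPA-first A to D. Both genes matched Dlk1 in having the other groups overlap while CSF3R-first stood apart, at 3.06 and 2.46 times the higher of the other means. Efna5, the Eph receptor ligand ephrin-A5, had the same form with means of 0.488, 1.18 and 0.5 CPM. Fgl1, a secreted fibrinogen-like protein that binds the receptor LAG3, was at means of 2.29, 4.14 and 0.689 CPM in that order. Gas2l2, of the GAS2 family of cytoskeletal proteins, was at means of 0.272, 1.1 and 0.597 CPM, and Zscan10, a zinc finger factor of pluripotent cells, at 0.386, 1.16 and 0.692 CPM. In each of these 6 genes the CSF3R-first samples did not overlap the others, and Gas2l2 and Zscan10 left the rule without CSF3R-first replicate A. The uncharacterised 4933430I17Rik, at means of 0.746, 1.46 and 0.496 CPM, overlapped through CSF3R-first replicate C at 0.999 CPM.

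For 4 low-level genes a single CSF3R-first sample made the mean. Rasd2, the small GTPase Rhes, had the largest ratio of all (3.99) but was at 0.194, 0.814 and 3.41 CPM in CSF3R-first A to C, so that A lay inside the range of 0.105 to 0.661 CPM of the other groups, B just above it and C far above it. Tac2, the neurokinin B precursor, was at 0.252, 0.564 and 2.34 CPM, and replicate C alone exceeded the samples of the other groups. Il1a, the cytokine interleukin-1 alpha, was at 1.29, 1.27, 1.34 and 1.49 CPM in CSF3R-only A to D, 5.56, 0.793 and 0.671 CPM in CSF3R-first A to C, and 0.123, 0.174, 0.0803 and 0.152 CPM in CEBPA-first A to D. Replicate A was high while B and C lay under every CSF3R-only sample, so Il1a was high in 1 of 3 CSF3R-first samples only. C1s1, a protease of the complement pathway, likewise read 2.85 CPM in replicate A and 0.835 and 0.933 CPM in B and C. Its CSF3R-only values ran from 0.591 to 0.918 CPM, and 15.1% of its longest transcript is near-identical to other genes.

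On the low side, the CSF3R-first mean was 0.220 to 0.623 times the lower of the other means, with a median of 0.550. All 3 CSF3R-first samples lay below all 8 others in 15 of the 20 genes, against 0.71% of eligible genes, and here too nothing is read from the difference because the rule used this contrast. Csgalnact1, Ifit3, Lpar1, Prok2 and Slco2b1 overlapped. Replicate A held the lowest CSF3R-first value in 11 genes, B in 7 and C in 2, so the replicate that was most often highest on the high side was most often lowest here. A group mean of 5 CPM was reached by 5 genes, and single counts ran from 5 to 27979.

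**Figure D3:**
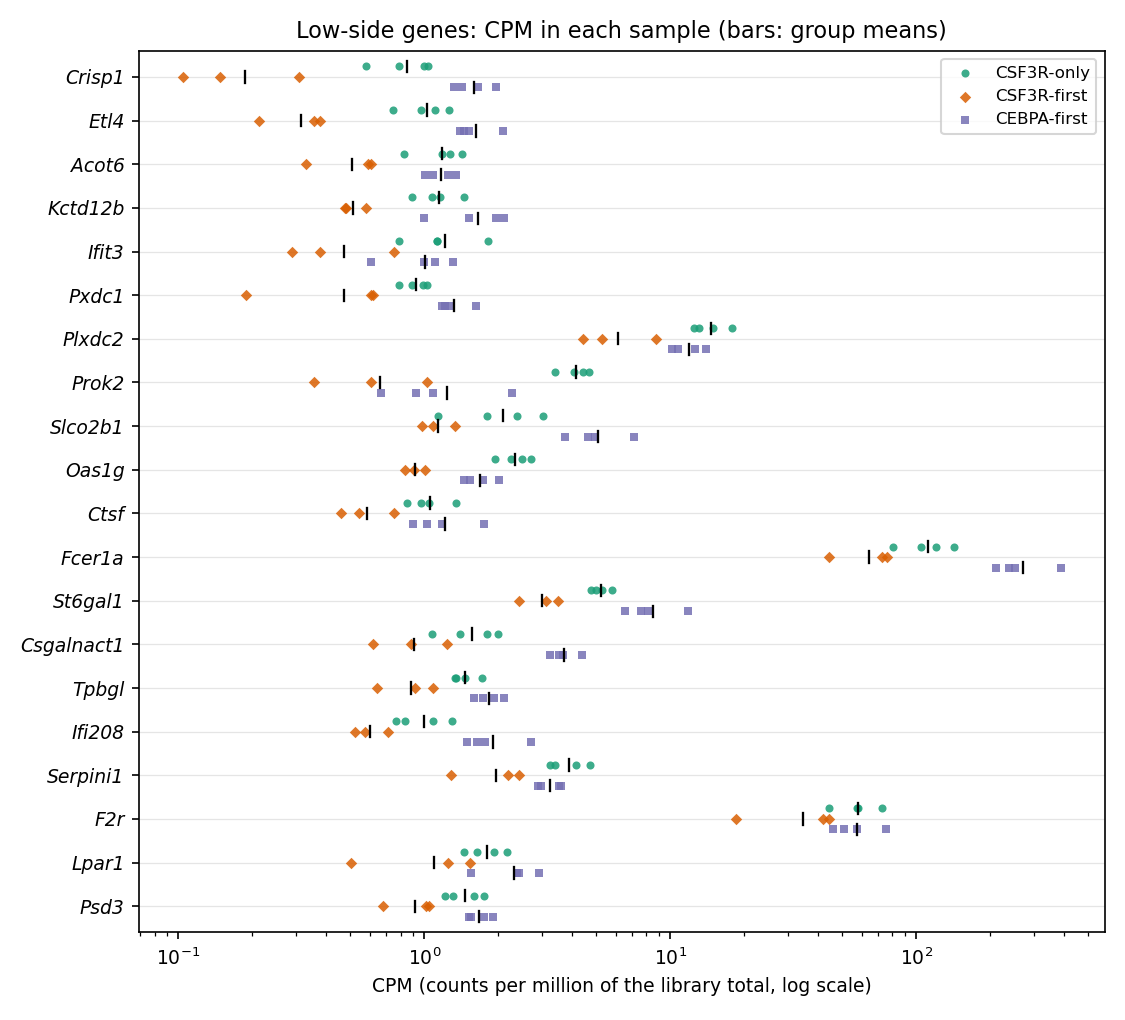
CPM (log scale) of the 20 low-side genes in each sample, with group means as black bars. CSF3R-first diamonds lie to the left of both other groups in 15 genes, and in Csgalnact1, Ifit3, Lpar1, Prok2 and Slco2b1 at least 1 diamond overlaps another group.

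The highest counts on either side belonged to Fcer1a (chr1:173221284-173227214), the IgE-binding alpha chain of the high-affinity IgE receptor of mast cells and basophils. It was at 80.6, 120.2, 142 and 105 CPM in CSF3R-only A to D, 44.1, 76.3 and 72.6 CPM in CSF3R-first A to C, and 212, 253, 238 and 387 CPM in CEBPA-first A to D. CEBPA-first was far above, CSF3R-only intermediate and CSF3R-first lowest, with 76.3 CPM as the top CSF3R-first value and 80.6 CPM as the lowest other one. The ratio of 0.575 to CSF3R-only met the rule only with CSF3R-first replicate A and CSF3R-only replicate C included. The beta chain gene Ms4a2 was at 85.4 ± 16.5, 76.1 ± 29.1 and 128 ± 26.1 CPM (SD), with less than 1 SD between its CSF3R-only and CSF3R-first means. The gamma chain gene Fcer1g, shared with other Fc receptors, was at 717 ± 51.1, 537 ± 117 and 277 ± 28 CPM, lowest where Fcer1a was highest.

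A list of 18 mast cell and basophil markers was read beside Fcer1a. Leaving out Fcer1a, 14 were eligible, of which 6 had their lowest mean in CSF3R-first (against 9.5% of all eligible genes) and 0 their highest (against 8.28%), while 7 had their lowest mean in CEBPA-first. The summed level without Fcer1a was 1491 to 2060 CPM in CSF3R-first, 2255 to 3652 CPM in CSF3R-only and 1745 to 2296 CPM in CEBPA-first, so CEBPA-first overlapped both other groups. These 14 markers were tested in CSF3R-first against CSF3R-only, and 4 were called lower (edgeR adjusted p under 0.05 and a log2 fold change of at least 1 in size, met downward by 4.53% and upward by 2.13% of all genes tested) and 0 higher. These 4 were Mcpt8, Mcpt4, Tpsb2 and Cd200r3, and all had their lowest mean in CEBPA-first, where Fcer1a was highest: Mcpt8 was at 733, 337 and 174 CPM. In CEBPA-first against CSF3R-only, 7 of the 14 were called lower (against 19% of all genes tested) and 0 higher (against 8.07%), whereas Fcer1a was called higher. In bulk samples, fewer cells of a type and less RNA per cell cannot be told apart, and the part of this cell type in the Fcer1a result was not tested.

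The promoter window of Fcer1a (RefSeq, GRCm38.p6, chr1:173227180-173227479, minus strand) is shown for its 1 match to the GATA motif AGATAA, in capitals, GATA factors being regulators of mast cell and basophil genes.
Fcer1a promoter: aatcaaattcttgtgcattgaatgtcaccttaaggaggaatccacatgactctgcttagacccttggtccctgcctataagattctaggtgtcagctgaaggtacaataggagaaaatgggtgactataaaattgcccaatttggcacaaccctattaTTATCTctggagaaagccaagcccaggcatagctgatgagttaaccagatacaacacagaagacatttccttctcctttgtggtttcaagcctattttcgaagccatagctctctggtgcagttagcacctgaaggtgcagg
That motif was in the windows of 2 of 15 low-side genes (13.3%), 1 of 24 high-side genes (4.17%), 7.93% of eligible genes and 12.7% of all genes with a window.

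F2r (chr13:95601803-95618487), the thrombin receptor PAR1, was at 44.2, 57.2, 72.3 and 57.8 CPM in CSF3R-only A to D, 18.5, 44.1 and 41.6 CPM in CSF3R-first A to C, and 45.9, 57.5, 50.8 and 75.1 CPM in CEBPA-first A to D. CSF3R-first replicate A was lowest by a wide margin, while B at 44.1 CPM lay just under CSF3R-only A at 44.2 CPM, so the separation was narrow. F2r was lost from the rule without CSF3R-first A, CSF3R-only C or CEBPA-first D. The related receptor genes F2rl2, at 33.3, 12.5 and 9.07 CPM, and F2rl3, at 11.3, 5.61 and 3.36 CPM, had their lowest mean in CEBPA-first instead. Lpar1, a receptor for lysophosphatidic acid, had means of 1.79, 1.1 and 2.32 CPM, with replicate A at 0.503 CPM and C at 1.54 CPM inside the range of the other groups.

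Plxdc2 (chr2:16356304-16755839), a plexin-domain surface protein, was at 14.9, 12.5, 13.1 and 17.9 CPM in CSF3R-only A to D, 8.71, 4.43 and 5.27 CPM in CSF3R-first A to C, and 10.1, 12.6, 10.8 and 14 CPM in CEBPA-first A to D. Every CSF3R-first sample was lower than every other sample, and its mean was 0.517 times the CEBPA-first mean. St6gal1 (chr16:23224740-23360350), a sialyltransferase of the Golgi, was at 5.82, 5.29, 4.75 and 5 CPM in CSF3R-only A to D, 3.5, 2.42 and 3.13 CPM in CSF3R-first A to C, and 7.57, 8.09, 11.9 and 6.52 CPM in CEBPA-first A to D. The 3 groups were separate, CSF3R-first lowest and CEBPA-first highest, though without CSF3R-first B the limit was missed. Slco2b1 (chr7:99657804-99711340), an organic anion transporter, was at 1.13, 2.38, 3.03 and 1.8 CPM in CSF3R-only A to D, 1.34, 0.981 and 1.08 CPM in CSF3R-first A to C, and 3.73, 4.65, 7.09 and 4.94 CPM in CEBPA-first A to D. CSF3R-only A at 1.13 CPM lay inside the CSF3R-first range, and 8.22% of its longest transcript is near-identical to Gm15635.

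The other 15 low-side genes had CSF3R-first means of 0.187 to 1.96 CPM, against 0.850 to 4.14 CPM in the other groups. Crisp1, a cysteine-rich secretory protein, had the smallest ratio (0.22) and was at 1.03, 0.581, 0.788 and 1 CPM in CSF3R-only A to D, 0.31, 0.104 and 0.147 CPM in CSF3R-first A to C, and 1.42, 1.65, 1.33 and 1.95 CPM in CEBPA-first A to D. It was at or under 0.310 CPM in CSF3R-first and at or above 0.581 CPM in every other sample. Etl4 followed at 0.308, with 0.213, 0.355 and 0.377 CPM in CSF3R-first against 0.747 to 2.09 CPM elsewhere.

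Prok2, the secreted peptide prokineticin 2 that neutrophils release, was at 4.06, 3.39, 4.43 and 4.66 CPM in CSF3R-only A to D, 1.03, 0.355 and 0.606 CPM in CSF3R-first A to C, and 1.09, 0.922, 2.27 and 0.664 CPM in CEBPA-first A to D. Both arms with the CEBPA mutant were low and they overlapped each other, while CSF3R-only stood apart above them. Serpini1, the protease inhibitor neuroserpin, had means of 3.87, 1.96 and 3.25 CPM, with all CSF3R-first values at or under 2.42 CPM and all others at or above 2.89 CPM.

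The remaining 7 low-side genes have varied roles. Csgalnact1, which starts chondroitin sulfate chains, had means of 1.57, 0.912 and 3.70 CPM, and Acot6, an acyl-CoA thioesterase, 1.18, 0.508 and 1.17 CPM. Ctsf, the lysosomal protease cathepsin F, had 1.05, 0.585 and 1.21 CPM, and Kctd12b 1.15, 0.512 and 1.65 CPM. Pxdc1, with 0.922, 0.471 and 1.32 CPM, depended on replicate B at 0.188 CPM. Psd3, an exchange factor for ARF GTPases, had 1.46, 0.912 and 1.68 CPM, and Tpbgl, a leucine-rich repeat surface protein, 1.46, 0.879 and 1.84 CPM. Among these 7, Csgalnact1 alone overlapped, through CSF3R-first B at 1.23 CPM and CSF3R-only A at 1.07 CPM. Psd3 left the rule without any 1 of 3 libraries, and Tpbgl and Csgalnact1 without either of 2. Tpbgl shares 38.6% of its longest transcript with Gm10605, and Acot6 15% with Acot4.

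Members of 3 interferon-induced gene families were on the low side, and 1 relative was on the high side. Ifit3 (chr19:34583531-34588731), of the IFIT family of RNA-binding antiviral proteins, was at 1.82, 1.12, 0.788 and 1.12 CPM in CSF3R-only A to D, 0.29, 0.751 and 0.377 CPM in CSF3R-first A to C, and 0.999, 0.609, 1.31 and 1.11 CPM in CEBPA-first A to D. Oas1g (chr5:120876142-120887613), of the oligoadenylate synthetases that activate RNase L, was at 2.48, 2.72, 1.93 and 2.24 CPM in CSF3R-only A to D, 0.91, 1 and 0.835 CPM in CSF3R-first A to C, and 2.02, 1.44, 1.73 and 1.54 CPM in CEBPA-first A to D. Ifi208 (chr1:173673675-173698395), of the IFI200 family, was at 0.768, 1.09, 1.3 and 0.834 CPM in CSF3R-only A to D, 0.523, 0.71 and 0.573 CPM in CSF3R-first A to C, and 1.63, 1.76, 2.71 and 1.49 CPM in CEBPA-first A to D. Oas1g and Ifi208 were lower in each CSF3R-first sample than in all others, while Ifit3 overlapped through CSF3R-first B.

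Ifit1bl2 (chr19:34617049-34640743), another IFIT gene 28.3 kb from Ifit3, was instead at 6.02, 3.58, 3.7 and 5.11 CPM in CSF3R-only A to D, 13, 6.83 and 6.57 CPM in CSF3R-first A to C, and 5.52, 3.41, 3.17 and 2.2 CPM in CEBPA-first A to D. Its CSF3R-first values were above all others, A by the widest margin, and without A the ratio of 1.91 fell under the limit. Near-identical copies make some of these levels uncertain, since 97.4% of the longest Ifit3 transcript matches Ifit3b, 94.1% of that of Oas1g matches Oas1a, and 16.2% of that of Ifi208 matches Ifi213.

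Among relatives outside the rule, Ifit1 also had its lowest mean in CSF3R-first but within the limit, at 5.16, 1.98 and 2.63 CPM, and Ifit2 was at 8.74, 9.21 and 16.1 CPM. Oas1a was at 24.7, 14.8 and 14.4 CPM and Oas3 at 44.6, 23.1 and 13.4 CPM. Ifi204 was at 87.5, 40.8 and 21.4 CPM and Ifi203 at 9.51, 15.6 and 23.1 CPM, in opposite orders. Ifit3 was the only member of either side among the 28 eligible genes of an interferon-stimulated list of 32, and of the other 27, 5 had their lowest mean in CSF3R-first (against 9.5% of all eligible genes), 2 their highest there (against 8.28%) and 17 their lowest in CEBPA-first. Leaving out Ifit3, 30 genes of that list were tested in CSF3R-first against CSF3R-only, and 0 were called higher and 6 lower by the edgeR test, against 2.13% and 4.53% of all genes tested. In CEBPA-first against CSF3R-only, 2 of the 30 were called higher and 14 lower, against 8.07% and 19%. The summed level of the list without Ifit3 was 1420 to 1640.3 CPM in CSF3R-first, 1382 to 1633 CPM in CSF3R-only and 1262 to 1446 CPM in CEBPA-first, so the groups overlapped in that sum.

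The RefSeq promoter windows (GRCm38.p6, from 250 bases before to 50 after the start) of the 4 genes are printed because all hold the interferon response element motif (GAAA, any 2 bases, GAAA), read on both strands and set in capitals. They are Ifit3 (chr19:34583279-34583578, plus strand, 2 matches), Oas1g (chr5:120887564-120887863, minus strand, 2 overlapping matches), Ifi208 (chr1:173673415-173673714, plus strand, 1 match) and Ifit1bl2 (chr19:34640694-34640993, minus strand, 2 matches).
Ifit3 promoter: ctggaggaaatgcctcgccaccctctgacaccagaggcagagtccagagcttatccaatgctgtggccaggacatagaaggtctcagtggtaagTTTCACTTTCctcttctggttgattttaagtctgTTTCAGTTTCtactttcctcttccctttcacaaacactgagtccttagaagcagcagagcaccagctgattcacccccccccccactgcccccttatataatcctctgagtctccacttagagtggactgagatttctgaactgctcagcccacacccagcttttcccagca
Oas1g promoter: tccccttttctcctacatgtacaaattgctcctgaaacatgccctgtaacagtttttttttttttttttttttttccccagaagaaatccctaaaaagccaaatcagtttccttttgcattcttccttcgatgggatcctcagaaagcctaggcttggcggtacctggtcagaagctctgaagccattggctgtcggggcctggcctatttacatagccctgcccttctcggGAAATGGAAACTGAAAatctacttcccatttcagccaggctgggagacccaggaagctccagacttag
Ifi208 promoter: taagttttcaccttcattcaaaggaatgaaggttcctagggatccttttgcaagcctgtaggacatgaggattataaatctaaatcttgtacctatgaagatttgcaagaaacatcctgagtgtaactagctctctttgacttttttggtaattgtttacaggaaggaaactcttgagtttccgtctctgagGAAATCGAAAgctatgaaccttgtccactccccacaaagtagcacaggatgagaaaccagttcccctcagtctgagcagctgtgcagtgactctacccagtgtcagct
Ifit1bl2 promoter: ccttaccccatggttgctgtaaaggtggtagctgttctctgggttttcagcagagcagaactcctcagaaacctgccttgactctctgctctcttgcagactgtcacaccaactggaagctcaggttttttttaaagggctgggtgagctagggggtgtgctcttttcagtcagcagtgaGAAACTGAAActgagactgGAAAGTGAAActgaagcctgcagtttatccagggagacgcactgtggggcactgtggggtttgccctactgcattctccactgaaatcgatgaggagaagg
The motif was in the windows of 3 of 15 low-side genes (20%), these 3, and 3 of 24 high-side genes (12.5%), which were Ifit1bl2, Fbn1 and Tmc7. It was in 3.94% of eligible genes and 3.99% of all genes with a window. The Ifit3 and Ifit1bl2 windows both hold it, and the genes stood on opposite sides. The Ifit1bl2 window overlaps Ifit1 (chr19:34640871-34650009), at 5.16, 1.98 and 2.63 CPM, so its matches cannot be assigned to Ifit1bl2 alone. A further window of Ifit1bl2 held no match.

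The contrast on which the rule set no ratio was CEBPA-first against CSF3R-only, tested with edgeR's quasi-likelihood method over 15703 genes. A call is an adjusted p under 0.05 with a log2 fold change of at least 1 in size. Of the 28 high-side genes 7 were called higher in CEBPA-first (against 8.07% of all genes tested) and 5 lower (against 19%), and 16 were neither. Of the 20 low-side genes 3 were called higher, 1 lower and 16 neither. The rule bounds both of these groups on the same side of CSF3R-first, so the members were not a free draw with respect to their difference. On the low side the minimum of 1 CPM also had to come from these groups. For Crisp1, Ifi208 and Pxdc1 it came from CEBPA-first alone. The median log2 fold change was -0.08 on the high side, 0.22 on the low side and -0.00 over all genes. Fold changes here use edgeR's TMM library scaling, which moved them by -0.133 log2 units against plain CPM.

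The high-side genes called higher in CEBPA-first thus had the order CSF3R-only, CEBPA-first, CSF3R-first. Cadps2 had a log2 fold change of 3.26 (SE 0.53, edgeR adjusted p = 9.78e-05), Chit1 of 2.88 (SE 0.39, edgeR adjusted p = 1.74e-05) and Teddm3 of 2.73 (SE 0.28, edgeR adjusted p = 1.89e-06). Clec4b2, at 1.65 (SE 0.16, edgeR adjusted p = 1.23e-06), and Svep1, at 1.52 (SE 0.18, edgeR adjusted p = 5.06e-06), followed. These 5 genes kept their call under every alternative that tested them, and in each all 4 CEBPA-first samples exceeded all 4 CSF3R-only samples. Gas2l2, at 1.0 (SE 0.27, edgeR adjusted p = 0.00419), sat on the fold change limit and lost its call in 7 of 18 alternatives, with values from 0.86 to 1.24. Tac2, at 1.4 (SE 0.58, edgeR adjusted p = 0.0431), lost its call in 6 of 17 alternatives, each time when 1 sample was left out, with adjusted p up to 0.106.

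The 5 high-side genes called lower in CEBPA-first had the order CEBPA-first, CSF3R-only, CSF3R-first. Tcf21 was at -2.37 (SE 0.12, edgeR adjusted p = 3.15e-09), with the smallest standard error among them. Il1a was at -3.44 (SE 0.69, edgeR adjusted p = 5.85e-04), Fgl1 at -1.89 (SE 0.28, edgeR adjusted p = 4.24e-05) and Gxylt2 at -1.53 (SE 0.20, edgeR adjusted p = 1.28e-05), and in each of these 4 genes all CEBPA-first samples were below all CSF3R-only samples. C1s1, at -1.1 (SE 0.40, edgeR adjusted p = 0.0249), lost its call without CSF3R-only B (adjusted p = 0.0636) or CEBPA-first A (0.0653). DESeq2 gave Il1a no adjusted p, so that alternative has no call for it.

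Of the high-side genes, 4 with a smaller difference passed the adjusted p alone in the upward direction, Fbn1 at 0.6 (SE 0.10, edgeR adjusted p = 1.48e-04), Ccr10 at 0.46 (SE 0.09, edgeR adjusted p = 6.20e-04), Smoc2 at 0.66 (SE 0.21, edgeR adjusted p = 0.0139) and Zscan10 at 0.7 (SE 0.24, edgeR adjusted p = 0.0186). Another 3 did so downward, Mak at -0.8 (SE 0.16, edgeR adjusted p = 6.18e-04), Cnga4 at -0.86 (SE 0.23, edgeR adjusted p = 0.0048) and Acox2 at -0.45 (SE 0.17, edgeR adjusted p = 0.0264). Over the alternatives the adjusted p rose to 0.053 for Smoc2, 0.0561 for Zscan10 and 0.0816 for Acox2, each past 0.05, and stayed under 0.05 for the other 4. The adjusted p alone was passed upward by 35.4% and downward by 36.6% of all genes tested. For Dlk1 the log2 fold change was -0.05 (SE 0.24, edgeR adjusted p = 0.854), for Plekhs1 0.05 (SE 0.21, edgeR adjusted p = 0.848), for Tmc7 -0.13 (SE 0.27, edgeR adjusted p = 0.665), for Efna5 -0.11 (SE 0.35, edgeR adjusted p = 0.792) and for Cacna1d 0.14 (SE 0.13, edgeR adjusted p = 0.35). None of these 5 passed, which does not show that their levels in both groups were equal.

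On the low side, Slco2b1 was higher in CEBPA-first at 1.16 (SE 0.26, edgeR adjusted p = 0.0014), Fcer1a at 1.15 (SE 0.20, edgeR adjusted p = 1.67e-04) and Csgalnact1 at 1.1 (SE 0.21, edgeR adjusted p = 3.49e-04). These 3 calls rest on the fold change limit, since without CSF3R-only A the values of Slco2b1 and Csgalnact1 were both 0.96, without CEBPA-first C that of Slco2b1 was 0.96, and without CEBPA-first D that of Fcer1a was 0.96. Prok2 was lower at -1.89 (SE 0.35, edgeR adjusted p = 2.89e-04) under every alternative. Below the fold limit, Ifi208 at 0.79 (SE 0.23, edgeR adjusted p = 0.00693), Crisp1 at 0.77 (SE 0.27, edgeR adjusted p = 0.0194), St6gal1 at 0.57 (SE 0.18, edgeR adjusted p = 0.0134) and Etl4 at 0.53 (SE 0.21, edgeR adjusted p = 0.0374) passed the adjusted p upward and Oas1g at -0.62 (SE 0.17, edgeR adjusted p = 0.00481) downward. Of these 5, Crisp1 and Etl4 missed 0.05 under some alternatives, with adjusted p up to 0.0597 and 0.133. Ifi208 and Crisp1 reached the minimum of 1 CPM through CEBPA-first alone, so nothing is read from their upward results. F2r, at -0.15 (SE 0.22, edgeR adjusted p = 0.552), and Acot6, at -0.14 (SE 0.21, edgeR adjusted p = 0.568), did not pass either rule.

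**Figure D4:**
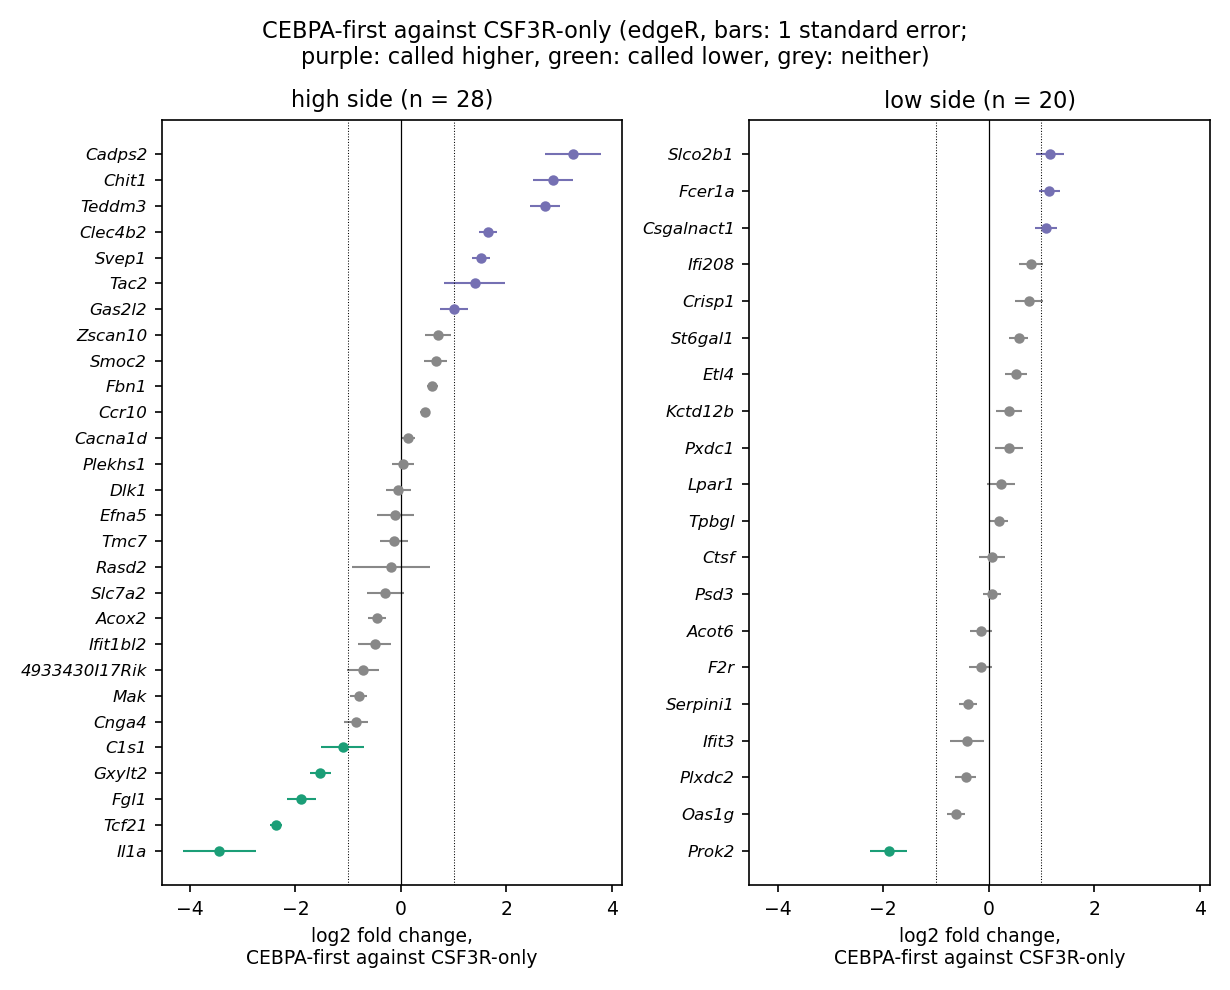
Log2 fold change of each of the 28 high-side and 20 low-side genes in CEBPA-first against CSF3R-only, with bars of 1 standard error from edgeR and dotted lines at 1 and -1. Genes called higher (purple, 7 and 3) or lower (green, 5 and 1) stand at the ends of a range with 16 uncalled genes (grey) on each side.

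The pattern was next read with samples left out of the choice of genes. The rule was applied after leaving out 1 replicate letter from every group, and the left-out CSF3R-first sample was then set against the left-out sample of each other group. Replicates D of the other groups took part in every choice of genes, and over genes CSF3R-first C deviated with them (r of 0.330 with CSF3R-only D and 0.384 with CEBPA-first D). The reading of letter C may thus not be independent of the choice. Each reading compares 1 sample per group and is a description without a test. Without letter A, 30 high-side genes were chosen, and 23 of them had the left-out CSF3R-first value above both others, against 9.7% of all eligible genes. Without B it was 30 of 37 (against 13.1%) and without C 30 of 33 (against 12.7%). On the low side the left-out value was below both others in 19 of 27, 23 of 31 and 26 of 36 genes, against 17.4%, 9.27% and 11.2%. The full margin was met in the left-out samples by 18, 18 and 16 high-side genes, against 0.446%, 0.280% and 0.290% of all eligible genes. On the low side it was met by 11, 7 and 10 genes, against 0.998%, 0.490% and 0.307%. The chosen genes were not the same as the members: 22, 28 and 26 high-side and 15, 17 and 17 low-side genes were shared. Median ratios in the left-out samples were 1.76, 1.57 and 1.59 on the high side and 0.697, 0.763 and 0.780 on the low side, so the distance was smaller there than the rule's limit in all but 1 of 6 readings.

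**Figure D5:**
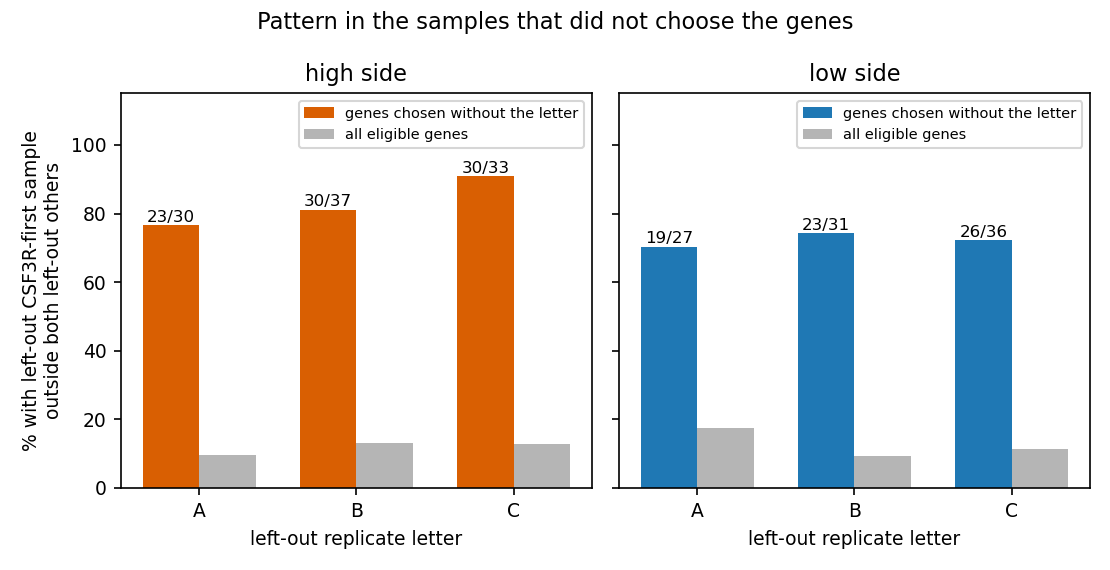
Percent of genes whose left-out CSF3R-first sample lay outside both left-out samples of the other groups, for genes chosen without that replicate letter (coloured, counts above the bars) and for all eligible genes (grey). The coloured bars stand above the grey ones for each letter and side, from 19 of 27 to 30 of 33 genes.

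Membership depended on single libraries for some genes. When each of the 11 libraries was left out in turn, 16 of 28 high-side genes and 8 of 20 low-side genes met the rule every time. Those on the high side were Dlk1, Tmc7, Fbn1, Chit1, Plekhs1, Efna5, Cadps2, Ccr10, Smoc2, Gxylt2, 4933430I17Rik, Clec4b2, Tcf21, Teddm3, Mak and Fgl1. Those on the low side were Crisp1, Etl4, Acot6, Kctd12b, Ifit3, Plxdc2, Oas1g and Ctsf. Tac2, F2r, Lpar1 and Psd3 each left the rule without any 1 of 3 libraries. Prok2, Fcer1a, Csgalnact1, Tpbgl, Ifi208 and Serpini1 each did so without either of 2. CSF3R-first replicate A mattered most, since 19 high-side and 12 low-side genes remained without it. Without CSF3R-only C 13 low-side genes remained, and without CSF3R-first C all 20 remained while the low side grew to 50 genes.

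Across the 11 samples, log2 CPM of high-side genes correlated with each other at a median Pearson r of 0.610 over 378 pairs and low-side genes at 0.686 over 190 pairs, while high-low pairs had a median of -0.642. These are descriptions without a test, because the points share groups and libraries and the rule itself makes genes of a side alike. Some members lay near each other on the chromosome. Tpbgl and Slco2b1, 30.7 kb apart on chromosome 7, and Psd3 and Csgalnact1, 145 kb apart on chromosome 8, had no eligible gene between them, and their r was 0.82 and 0.84. Fcer1a and Ifi208 lay 446 kb apart on chromosome 1 with 4 eligible genes between them and an r of 0.89. Svep1 and Lpar1, 228 kb apart on chromosome 4 with none between, were on opposite sides, as were Ifit1bl2 and Ifit3 on chromosome 19. Slc7a2 and Fgl1, 269 kb apart on chromosome 8, were both on the high side with an r of 0.65.

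High-side genes had a median of 3497.5 exon bases, low-side genes 4911 and all eligible genes 4512.5. Median promoter GC was 52.7% on the high side, 52.3% on the low side and 60.7% over eligible genes, against 52.7% of all windows. The AP-1 motif TGANTCA was in the windows of 4 of 24 high-side genes (16.7%) and 5 of 15 low-side genes (33.3%), against 6.30% of eligible genes and 8.97% of all. The STAT motif TTCNNNGAA was in 3 high-side genes (12.5%) and 1 low-side gene (6.67%), against 8.38% of eligible genes.

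Of 28 lists of cell type markers and pathways, 5 held a member, and 4 of the 48 genes were on a list (8.33%, against 3.32% of eligible genes): Fcer1a, Ifit3, Il1a (on the NF-kB target and the cytokine lists) and Slc7a2 (on the transporter list). The other 44 genes were on none. Fbn1, Smoc2, Svep1, Dlk1 and Tcf21 are known from connective tissue and other stromal cells, so the stromal and endothelial list was read beside them. Of its 15 genes, 7 were eligible, 0 had their highest mean in CSF3R-first (against 8.28% of all eligible genes) and 3 their lowest (against 9.5%), and the sum was 187 to 233 CPM in CSF3R-first, 218 to 251 CPM in CSF3R-only and 256 to 338 CPM in CEBPA-first. Col3a1, Lum, Cxcl12 and Bgn were at 0 in all samples, and Col1a1 was at 0.798, 0.757 and 0.402 CPM. Col1a2, at 0.159, 0.153 and 3.60 CPM, and Pdgfrb, at 5.34, 9.04 and 17.8 CPM, were highest in CEBPA-first. Of 9 genes of that list tested, 0 were called higher and 1 lower in CSF3R-first against CSF3R-only (2.13% and 4.53% of all genes tested), and 2 higher and 3 lower in CEBPA-first against CSF3R-only (8.07% and 19%). Which cells expressed Fbn1, Smoc2, Svep1, Dlk1 and Tcf21 was not tested.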

How the data were processed

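RNA-seq counts of 11 samples in 3 groups were analysed. The authors sorted the cells, made libraries with a low-input SMARTer kit, trimmed reads with Trimmomatic and aligned them with STAR to mm10 (tool and build per the submitters' processing notes), and deposited raw, unnormalized read counts of each gene. The counter, its annotation and its use of strand are not given in the sources used here, so overlapping or antisense genes could share reads.

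CPM was 1000000 times the count divided by the library total (47905747 to 72268346). Of 51912 genes in the table, 51719 matched GENCODE vM21 (GRCm38), which gave gene type and position, and 0.00896% or less of any library lay in unmatched genes. Members were chosen by the rule on group means, and members and lists were chosen with earlier results of these data known. Every member was accounted for, and those reaching a mean of 5 CPM, those at the limit, chromosome neighbours within 500 kb and family relatives were named, with Cebpa and Csf3r.

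CEBPA-first against CSF3R-only was tested with edgeR 4.0.16 (quasi-likelihood, TMM, filterByExpr, 1 fit of the 3 groups, Benjamini-Hochberg over 15703 genes, R 4.3.3). Standard errors were derived from the fold change and edgeR's F statistic. The script was tested on simulated counts. DESeq2 1.42.0, other normalizations, filters, thresholds, a replicate block and each sample left out were alternatives. Near-identical transcripts were searched with BLAST 2.17.0 and exon overlaps with bedtools 2.31.1. Promoter windows came from RefSeq (GRCm38.p6), which held 24 of 28 high-side and 15 of 20 low-side genes.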

Additional observations from a re-analysis of the deposited data

Results flagged for a closer look

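In 2 of the 96 groups of 4 samples checked (48 genes in CSF3R-only and CEBPA-first), 1 sample stood apart from the other 3 by Dixon's criterion at the 95% level, which flags about 1 group in 20 by chance, or 4.8 here. C1s1 was at 0.281 CPM in CEBPA-first replicate A against 0.418 to 0.442 CPM in B to D. Replicate B of CSF3R-only read 11.2 CPM for Cacna1d, against 13.3 to 13.7 CPM in the other replicates. CSF3R-first, with 3 samples, was not checked in this way.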

How the results depend on the processing

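The 28 high-side and 20 low-side genes all met the rule under TMM (29 and 29 genes) and DESeq2 size factors (29 and 27). Under medians in place of means, 21 and 13 of them remained. A ratio of 1.5 gave 35 low-side genes, a ratio of 2 gave 10 high-side and 5 low-side genes, a minimum of 2 CPM gave 10 low-side genes, and a minimum of 5 CPM gave 13 and 5. Leaving out 1 sample at a time gave 27 to 39 high-side and 17 to 50 low-side genes. In CEBPA-first against CSF3R-only, requiring 10 counts in every sample left 3 high-side genes called higher, since Chit1, Cadps2 and Tac2 were not tested and Gas2l2 was at 0.97, under the fold change limit, and the adjusted p alone gave 11 higher and 8 lower on the high side and 7 higher and 2 lower on the low side. With 1 sample left out, the counts were 5 to 7 and 4 to 5 on the high side and 1 to 3 and 1 on the low side, the 1 without CSF3R-only A. A replicate block gave 7 and 5 calls on the high side and 3 and 1 on the low side, as without it, and changed no call of a member. The labels do not say what a letter marks. Deviations of same-letter samples of CEBPA-first and CSF3R-only correlated at 0.063 to 0.362 over 4 pairs, and CSF3R-only B did not correlate best with its own letter. CSF3R-first A went with CSF3R-only A (0.314) and CEBPA-first A (0.287). CSF3R-first B went with CEBPA-first B (0.204), but with CSF3R-only C (0.173) more than with CSF3R-only B (0.087). CSF3R-first C went with replicates D of CSF3R-only (0.330) and CEBPA-first (0.384) but not with CEBPA-first C (-0.107). A batch shared across groups was not tested. The log2 fold change of 7 genes without a call changed sign: Dlk1 was at 0.018 with no filter beyond 1 count, and with 1 sample left out the values ran from -0.69 to 0.14 in Rasd2, -0.26 to 0.12 in Dlk1, -0.34 to 0.053 in Tmc7, -0.026 to 0.17 in Plekhs1, -0.42 to 0.15 in Efna5, -0.16 to 0.21 in Ctsf and -0.014 to 0.16 in Psd3; the cause was not tested. Of single-gene fold changes, 499 with 1 sample left out and 325 under other settings kept direction and call, and 17 and 2 lost the call. At 1 CPM a few counts limit precision.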

Other observations

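Outside the protein-coding genes, 5 genes met the same numbers on the high side and 1 on the low side. BC018473, annotated as antisense on chromosome 11, was at 0.505, 0.881, 0.453 and 0.728 CPM in CSF3R-only A to D, at 5.96, 4.32 and 4.03 CPM in CSF3R-first A to C and at 0.21, 0.139, 0.241 and 0.138 CPM in CEBPA-first A to D. Its CSF3R-first mean was 7.43 times the higher of the other means, above the largest ratio among the protein-coding genes (3.99), with no overlap between CSF3R-first and other samples. 1810006J02Rik was at 8.15, 5.74 and 6.16 CPM in CSF3R-first A to C against 1.84 to 3.59 CPM in the other samples, again without overlap. Gm15232, Gm44096 and Gm3571 had CSF3R-first means of 1.11, 1.13 and 1.09 CPM and overlapped the other groups. On the low side, Gm13842 was at 0.0774, 0.313 and 0.508 CPM in CSF3R-first A to C, with group means of 0.608 CPM in CSF3R-only and 1.51 CPM in CEBPA-first. Whether the counter used strand is not given in the sources used here, so reads of BC018473 and of a gene on the opposite strand cannot be told apart.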
